A study of Mus musculus with 12 samples.

Results

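Sprouty and Spred genes encode negative feedback regulators of signalling from receptor tyrosine kinases to ERK. The 6 genes described here, Spry1, Spry2, Spry4, Spred1, Spred2 and Spred3, were taken by gene symbol from a table of 55573 mouse genes, and all 6 were among the 13836 genes with enough counts to be tested. RNA was sequenced from tumourspheres, which are cells grown in suspension, of the mouse spindloid mammary tumour lines A1005, A1129 and A1471. Treatment lasted 24 h and was DMSO (vehicle), Crizotinib (an inhibitor of Met kinase), PD173074 (an inhibitor of FGF receptor kinases) or both inhibitors (Combo), which gave 12 libraries and n = 3 cell lines per treatment. All groups, the DMSO controls included, share the genotype MMTV-Metmt;Trp53fl/+;Cre, in which the MMTV promoter directs an activated Met transgene to mammary epithelium and Trp53 can be lost through Cre. Each line came from 1 tumour and gave 1 library per treatment, so a difference between lines cannot be tested within a treatment. The study's methods describe a serum-free sphere medium that contains bFGF, EGF and insulin, so that ligand for FGF receptors was present in every group.

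Receptors such as Met and FGFR1 pass their signal through adaptors to RAS, then to RAF, MEK and ERK kinases, and ERK in turn raises the transcription of genes that dampen the same route. Sprouty proteins bind adaptors and other components between receptor and RAF, and Spred proteins bring neurofibromin, which turns RAS off, to the membrane. Transcripts of several of these genes are used as readouts of ERK pathway output.

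Total counts per library ranged from 13031492 to 17750476. Markers of cell types were mixed. Vim, a mesenchymal gene, lay between 1903 and 3204 CPM (counts scaled to a common library size after TMM normalisation), while the mesenchymal cadherin Cdh2 had 0 to 6 counts and the epithelial cadherin Cdh1 at most 9. The epithelial keratins Krt8, with 17 to 611 counts, and Krt18, with 53 to 748, were detected in every library. Summed CPM of the 6 mesenchymal markers ranged from 3177 to 4568 with DMSO and from 2455 to 8484 with Combo. The sum over 6 epithelial markers ranged from 16.1 to 39.6 with DMSO and from 7.32 to 42.2 with Combo, with Krt5 at 0 counts throughout. The sum over 5 immune markers ranged from 4.34 to 31.3 with DMSO and from 8.22 to 42.0 with Combo. The leukocyte gene Ptprc had 174 to 339 counts in the libraries of A1005 and at most 2 in those of the other lines. The macrophage gene Cd68 had 62 to 439 counts, in every library of every line, while Cd3e and Adgre1 had at most 2 counts in every library. The 4 endothelial markers together did not exceed 0.752 CPM. The part that these differences between lines play in the results was not tested.

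The 6 genes lie on separate chromosomes of the mouse genome build mm10. Spry1 (ENSMUSG00000037211) occupies chromosome 3 from 37639947 to 37644598 on the plus strand and Spry2 (ENSMUSG00000022114) chromosome 14 from 105891947 to 105896819 on the minus strand. Spred1 (ENSMUSG00000027351) occupies chromosome 2 from 117121374 to 117182279 on the plus strand, Spred2 (ENSMUSG00000045671) chromosome 11 from 19924375 to 20024026 on the plus strand, and Spred3 (ENSMUSG00000037239) chromosome 7 from 29158829 to 29170411 on the minus strand. Counts were summed over the exons of each gene, untranslated regions included. Ggn shares 202 exon bases with Spred3 on the opposite strand and had 10 to 50 counts per library. The unverified transcript Gm42922 shares 710 exon bases with Spry1 on the opposite strand and had 0 to 7 counts. The strand setting used for counting is not given in the sources used here, so these shared bases are uncertain. Spry3, the remaining Sprouty gene, lies outside the 6 genes described. It had 138 to 215 counts in the libraries of A1005 and at most 10 in the other lines.

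The promoters of 3 members are printed so that Spry1, which did not pass the test in the combination, can be set beside Spry2 and Spred1, which fell. RefSeq promoter sequence was at hand for 5 of the 6 members, Spry4 being the exception. The sequences are the 250 bases before the RefSeq start in build GRCm38.p6, on the strand of the gene. Capitals mark a match to the ETS motif CGGAAG. Shorter forms of this motif, such as GGAA, were not searched for.
Spry1, chr3:37639697-37639946, plus strand: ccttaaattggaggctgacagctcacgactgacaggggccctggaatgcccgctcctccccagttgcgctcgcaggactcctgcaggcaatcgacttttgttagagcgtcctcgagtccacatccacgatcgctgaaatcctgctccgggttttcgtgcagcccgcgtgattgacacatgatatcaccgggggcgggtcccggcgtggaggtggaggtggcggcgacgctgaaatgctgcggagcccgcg
Spry2, chr14:105896820-105897069, minus strand: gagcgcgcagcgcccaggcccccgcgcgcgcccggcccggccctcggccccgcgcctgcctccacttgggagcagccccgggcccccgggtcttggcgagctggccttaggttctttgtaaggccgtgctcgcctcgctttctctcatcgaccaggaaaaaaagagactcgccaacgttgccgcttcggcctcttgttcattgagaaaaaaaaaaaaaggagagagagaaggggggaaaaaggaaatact
Spred1, chr2:117120821-117121070, plus strand: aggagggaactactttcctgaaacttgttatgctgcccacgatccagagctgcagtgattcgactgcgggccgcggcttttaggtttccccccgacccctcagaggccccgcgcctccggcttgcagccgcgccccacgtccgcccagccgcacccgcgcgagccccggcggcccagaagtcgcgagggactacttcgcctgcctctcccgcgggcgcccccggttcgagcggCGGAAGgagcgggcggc
GC content was 62.4% in the windows of Spry1 and Spry2 and 70.8% in that of Spred1, against a median of 52.4% over 32851 RefSeq promoters. The RefSeq start of Spred1 lies upstream of the start that the GENCODE annotation gives this gene. On both strands, the windows were searched for CGGAAG, for the AP-1 motif TGANTCA, the cyclic AMP response element TGACGTCA, the E-box CACGTG and the CArG box. Only CGGAAG was matched among the 5 members, once in Spred1, 17 bases before the start, and once in Spred2, 43 bases before it. Of all promoters in the table, 13.6% held CGGAAG, 6.75% the AP-1 motif, 1.55% the cyclic AMP response element, 6.02% the E-box and 1.47% the CArG box. The match in Spred2 lies within an exon of a longer GENCODE transcript. A match of these letters is a description of the window and not a measured binding site.

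With DMSO, Spred1, Spred2 and Spry2 were the most highly expressed members. On a scale of CPM per kilobase of exon, which allows levels of different genes to be compared, Spred1 was at 23.8 ± 2.23 (SD, n = 3 lines), Spred2 at 22.0 ± 2.27 and Spry2 at 19.9 ± 4.38. Their ranges over the lines overlapped, from 15.5 for the lowest Spry2 library to 25.4 for the highest Spred1 library. Spred3 was at 5.10 ± 1.27 CPM per kilobase, Spry4 at 3.73 ± 1.55 and Spry1 at 2.98 ± 0.962. These ranges also overlapped each other, from 2.09 to 6.47, and all lay below the lowest value of the higher group. With Combo the order was Spred1 at 7.14 ± 5.03 CPM per kilobase, Spry2 at 4.09 ± 2.25, Spred2 at 3.11 ± 2.11, Spry1 at 2.83 (SD 1.503), Spred3 at 0.975 ± 0.569 and Spry4 at 0.0570 ± 0.0649. Spry1 therefore moved from the lowest place to the fourth, with a range in Combo of 1.96 to 4.57 that overlapped those of Spred1, Spry2 and Spred2.

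**Figure D1:**
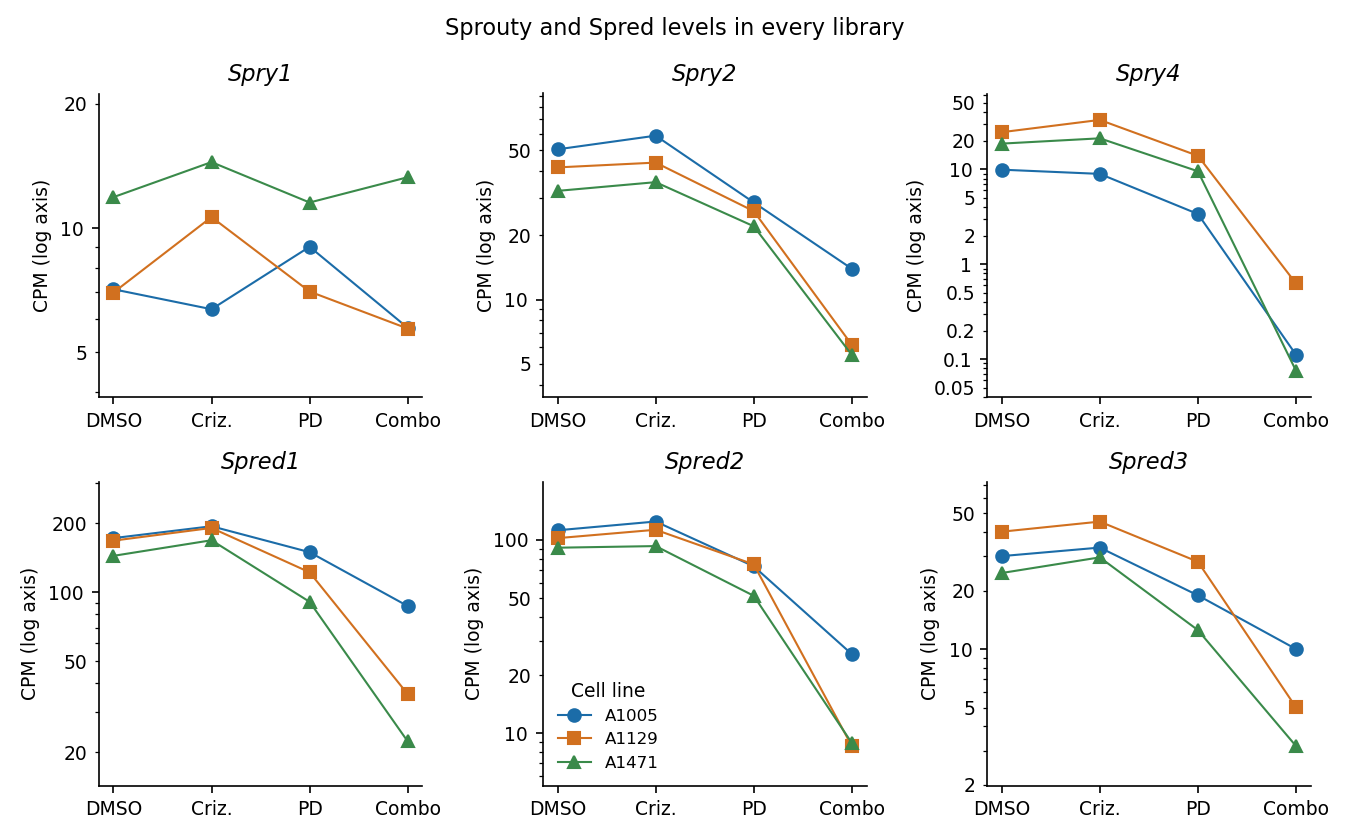
Level of each of the 6 genes in every library, as CPM on a log axis with its own scale in each panel, by treatment along the horizontal axis (Criz., Crizotinib, PD, PD173074); each point is 1 library and lines join libraries of the same cell line. Spry4 falls from between 9.91 and 24.6 CPM with DMSO to between 0.0755 and 0.627 with Combo, while Spry1 lies between 5.70 and 14.5 in every library.

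The first question was how each inhibitor alone and the combination changed these transcripts against DMSO. In the combination, 5 of the 6 members fell, Spry4 by the most, and Spry1 did not pass the test. With the unpaired fit, 8.28% of all tested genes were called lower in this comparison (quasi-likelihood test of edgeR at an adjusted p under 0.05). In a second fit the cell line entered as a blocking factor, which takes out the differences between lines common to all treatments, and the share was then 26.2%. The median log2 fold change was -2.33 over the 6 members and 0.02 over all tested genes. All comparisons against DMSO use the same 3 control libraries. In bulk RNA, fewer cells that express a gene and less RNA per cell cannot be told apart.

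Spry4 (ENSMUSG00000024427, chromosome 18 of mm10 from 38586247 to 38601415, minus strand) encodes a Sprouty protein that acts on the route from receptor to RAF. It had 127, 374 and 270 counts with DMSO in A1005, A1129 and A1471, and 2, 10 and 1 counts with Combo. Every Combo library lay far below every DMSO library. The Combo level was 1.12% of the DMSO level of the same line in A1005 (95% exact binomial interval 0.134 to 4.14), 2.55% in A1129 (1.21 to 4.74) and 0.405% in A1471 (0.0102 to 2.27). These intervals cover counting error only, because the reads carry no molecular identifiers and are not independent molecules. The group mean was 17.7 ± 7.39 CPM with DMSO and 0.271 ± 0.309 CPM with Combo (SD, n = 3). The log2 fold change was -5.98 (SE 0.94, edgeR adjusted p = 0.00343, and 9.62e-07 with the block). This was the 7th most negative log2 fold change among the 13836 tested genes. With so few Combo counts the size of the fold is less certain than its direction.

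Spry2, which binds the ubiquitin ligase CBL and the adaptor GRB2, stood at 50.6, 41.6 and 32.3 CPM with DMSO and at 13.9, 6.14 and 5.51 with Combo in A1005, A1129 and A1471. The groups did not overlap, and the highest Combo library was that of A1005. The log2 fold change was -2.28 (SE 0.37, edgeR adjusted p = 0.00384, and 9.61e-06 with the block), which is 4.85-fold lower. By line, the level that remained was 27.6%, 14.8% and 17.0% of that with DMSO.

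Spry1, the Sprouty gene best known for limiting GDNF and FGF signals in development, was at 7.10, 6.97 and 11.9 CPM with DMSO and 5.73, 5.70 and 13.3 with Combo. The groups overlapped, with A1471 highest in both. Its log2 fold change was -0.07 (SE 0.44, 95% interval -1.04 to 0.90, edgeR adjusted p = 0.943), and with the block it was -0.13 (edgeR adjusted p = 0.649). The interval leaves room for a change of about 2-fold in either direction. Within each line the Combo level was 80.6%, 81.8% and 111.8% of the DMSO level, and the counting intervals of all 3 lines included 100%. The change of every other member was more negative than that of Spry1 in each of the 3 lines, with a mean difference of -2.23 log2 units for Spry2. With 3 lines, the exact two-sided sign-flip test of such a difference cannot go below p = 0.25, which is the value it gave for each of the 5 members.

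The Spred genes fell together in the combination. Spred1, whose product carries neurofibromin to the membrane and which is mutated in Legius syndrome in humans, stood at 172, 168 and 144 CPM with DMSO and at 87.1, 35.9 and 22.3 with Combo in A1005, A1129 and A1471. No Combo library reached the lowest DMSO library, and A1005 kept the highest level. The log2 fold change was -1.74 (SE 0.42, edgeR adjusted p = 0.0223, and 0.000387 with the block). When only the libraries of the groups compared entered the fit, Spred1 did not pass (edgeR adjusted p = 0.0993). Spred2, a close relative expressed in many tissues, stood at 111.9, 101.9 and 91.0 CPM with DMSO and at 25.6, 8.59 and 8.90 with Combo. The groups were again apart, and the log2 fold change was -2.82 (SE 0.40, edgeR adjusted p = 0.00211, and 2.34e-05 with the block), or 7.05-fold lower. Spred3, the member of this family that lacks a functional KIT-binding domain, stood at 30.1, 40.3 and 24.7 CPM with DMSO and at 10.01, 5.01 and 3.17 with Combo. Its groups did not overlap, with a log2 fold change of -2.38 (SE 0.45, edgeR adjusted p = 0.00775, and 0.000107 with the block).

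The 5 members that fell had non-overlapping groups, as did 16.1% of all tested genes in the lower direction, and they were lower in each line, as were 32.5%. The size of the fall depended on the line. In A1005 the level that remained was 50.5% for Spred1, 22.9% for Spred2 and 33.2% for Spred3, compared with 21.4%, 8.42% and 12.5% in A1129 and 15.5%, 9.79% and 12.9% in A1471. A1005 thus had the smallest fall for Spry2 and for the 3 Spred genes, but not for Spry4, where A1129 kept the most. A1005 is also the line with Ptprc and Spry3 counts, and the part of this difference in the result was not tested. With 2 lines left, the unpaired edgeR test called 5 members lower without A1005, 1 member (Spry4, adjusted p = 0.0301) without A1129 and 0 without A1471. Over all genes, 1142 of 13568, 236 of 13791 and 108 of 14021 were called lower in these fits. With the block, all 5 were called whichever line was left out. Over all genes, 3320 of 13568, 2758 of 13791 and 2441 of 14021 were then called lower, in the same order.

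**Figure D2:**
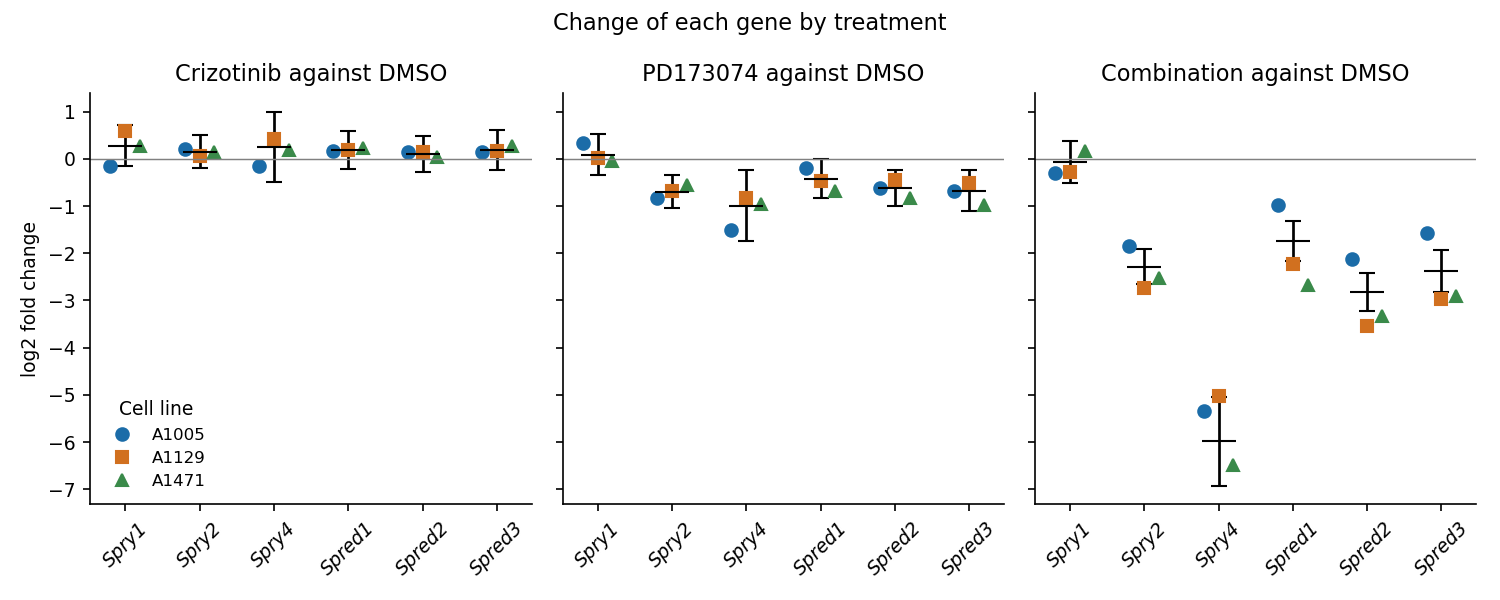
Log2 fold change of each gene against DMSO for Crizotinib, PD173074 and Combo; coloured symbols are the values of the 3 cell lines, each against its own DMSO library, horizontal bars are the edgeR log2 fold changes and error bars their standard errors. In the combination 5 genes lie below 0 in every line, from -0.98 for Spred1 in A1005 to -6.48 for Spry4 in A1471, and Spry1 lies on both sides of 0.

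With Crizotinib alone, no member passed the test against DMSO, and the background share of genes called was 0% with and without the block (edgeR). In the unpaired fit 18 of all tested genes had an unadjusted p under 0.05, none of them a member. DESeq2 and limma-voom also called 0 members. The log2 fold changes were all above 0, from 0.11 for Spred2 to 0.28 for Spry1, with a median of 0.19 against -0.00 over all genes. Spry2, Spred1, Spred2 and Spred3 were higher in all 3 lines, as were 17.9% of all tested genes. Spred1, for example, was at 194, 191 and 169 CPM in A1005, A1129 and A1471, against 172, 168 and 144 with DMSO. These values overlapped, and the log2 fold change of 0.19 had a standard error of 0.40 (edgeR adjusted p = 1). Spry4 went from 9.91 to 8.95 CPM in A1005 and from 24.6 to 33.2 in A1129, so its lines moved in opposite directions.

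With PD173074 alone, no member passed the unpaired test, in which the background share was 0% (edgeR; 307 of all genes and 0 of the 6 members had an unadjusted p under 0.05). DESeq2 and limma-voom without the block also called 0 members. Spry2, Spry4, Spred1, Spred2 and Spred3 were nevertheless lower in all 3 lines, a pattern shared by 23.3% of all tested genes, and the median log2 fold change was -0.64 over the 6 members against 0.00 over all genes. With the block, Spry4 passed, where 0.52% of all genes were called lower. Its counts were 56, 194 and 134 with PD173074, and each line kept 34.1%, 56.4% and 51.2% of its DMSO level. The log2 fold change was -1.09 with the block (SE 0.21, edgeR adjusted p = 0.0283) and -0.99 without it (SE 0.75, edgeR adjusted p = 1). The blocked call was lost when any line was left out (edgeR adjusted p = 0.162 without A1005, 0.0752 without A1129 and 0.211 without A1471). In these fits 15 of 13568, 21 of 13791 and 0 of 14021 genes were called lower.

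The values of Spry2 with PD173074 were 28.5, 26.0 and 22.1 CPM in A1005, A1129 and A1471, all below the lowest DMSO library, with a log2 fold change of -0.70 (SE 0.35, edgeR adjusted p = 1, and 0.0851 with the block). DESeq2 with the block called Spry2 lower (adjusted p = 0.0127), where 201 of 13836 genes were called lower. For Spred2 they were 72.9, 74.6 and 51.3 CPM, also apart from DMSO, with a log2 fold change of -0.62 (SE 0.38, edgeR adjusted p = 1, and 0.249 with the block). Groups that did not overlap in the lower direction were found for 3.07% of all tested genes. Spred1 and Spred3 had log2 fold changes of -0.42 and -0.67 and groups that overlapped with DMSO. Spry1 was at 9.01, 7.01 and 11.5 CPM, with a log2 fold change of 0.09 (SE 0.44, edgeR adjusted p = 1).

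Combo was next compared with each inhibitor alone, which asks what the second inhibitor adds. Against Crizotinib, 5 members were lower, where 7.78% of all genes were called lower (edgeR, unpaired), and the same 5 were lower with the block, where the share was 26%. The log2 fold changes ran from -1.93 for Spred1 (SE 0.42, edgeR adjusted p = 0.0154) to -6.23 for Spry4 (SE 0.95, edgeR adjusted p = 0.00312). With only the libraries of these groups in the fit, Spred1 did not pass (edgeR adjusted p = 0.0803). Without A1129 or without A1471, 1 and 0 members were called in the unpaired fit. Of all genes, 243 of 13791 and 96 of 14021 were called lower there. Against PD173074, 3 members were lower, where 3.93% of all genes were called lower. These were Spry4 with a log2 fold change of -4.99 (SE 0.91, edgeR adjusted p = 0.0128), Spred2 with -2.20 (SE 0.39, edgeR adjusted p = 0.0121) and Spry2 with -1.58 (SE 0.36, edgeR adjusted p = 0.037). Spred3 had a log2 fold change of -1.71 (SE 0.44, edgeR adjusted p = 0.0576) and Spred1 one of -1.32 (SE 0.41, edgeR adjusted p = 0.108), and both passed with the block (edgeR adjusted p = 0.00175 and 0.00345), where 20.2% of all genes were called lower. In the unpaired fit, 0 members were called against PD173074 without A1129, without A1471 or with only the libraries of the groups compared. Of all genes, 60 of 13791, 60 of 14021 and 116 of 12821 were called lower in these fits. The call of Spry4 was lost with limma-voom (adjusted p = 0.131) and that of Spry2 without a filter on low counts (edgeR adjusted p = 0.0507). The 5 members were lower than with PD173074 in each of the 3 lines, as were 29.5% of all tested genes. For Spry1 the log2 fold change was -0.35 against Crizotinib (edgeR adjusted p = 0.672) and -0.16 against PD173074 (edgeR adjusted p = 0.918).

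Whether the combination differed from the sum of both single changes on the log2 scale was tested as a separate contrast. For Spry4, the sum of the single changes was -1.66, -0.39 and -0.77 in A1005, A1129 and A1471, and the change in the combination was -5.35, -5.02 and -6.48. For Spred2, the sums were -0.47, -0.31 and -0.80 and the changes -2.12, -3.55 and -3.33. The combination lay below the sum for all 6 members in all 3 lines, as it did for 28.5% of all tested genes. The departure ranged from -0.08 for Spry1 in A1471 to -5.71 for Spry4 in A1471.

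In the unpaired fit, 0 of the 6 members passed the test of this departure at an adjusted p under 0.05 (edgeR), where 0.911% of all genes were called lower, and 5 had an unadjusted p under 0.05. DESeq2 called 3 members and limma-voom 1, where 385 and 134 of 13836 genes were called lower. With the block, 5 members passed, where 10.7% of all genes were called lower. The departure with the block was -5.10 for Spry4 (SE 0.40, edgeR adjusted p = 6.54e-05), -2.39 for Spred2 (SE 0.36, edgeR adjusted p = 0.00243) and -1.79 for Spry2 (SE 0.26, edgeR adjusted p = 0.00168). Spred3 followed at -1.89 (SE 0.39, edgeR adjusted p = 0.013) and Spred1 at -1.62 (SE 0.39, edgeR adjusted p = 0.0223). Spry1, at -0.52, did not pass (edgeR adjusted p = 0.273). With the block, 5 members passed without A1005, 3 without A1129 and 1 without A1471. Of all genes, 1195 of 13568, 447 of 13791 and 379 of 14021 were called lower in these fits.

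**Figure D3:**
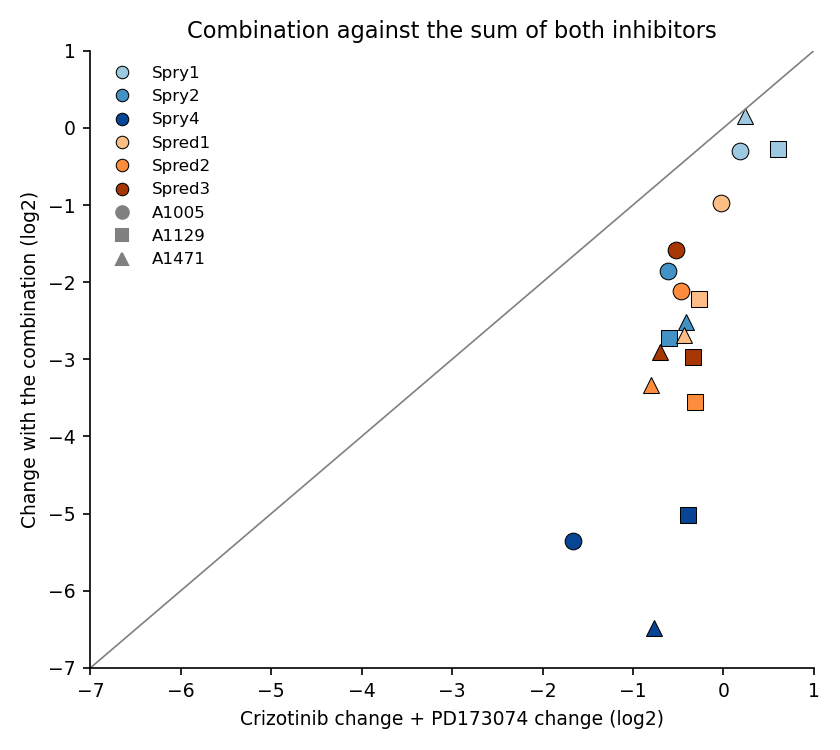
Change in the combination against the sum of the changes with each inhibitor alone, both as log2 values against the line's own DMSO library; each symbol is 1 gene (colour) in 1 cell line (shape) and the grey line marks equality. All 18 symbols lie below the line, those of Spry1 nearest to it and those of Spry4 farthest.

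The make-up of the family changed with the combination, since Spry1 took a larger share in each line. Its share was also larger with PD173074 alone, to a lesser degree. The Sprouty sum (Spry1, Spry2 and Spry4) was 26.6 ± 2.75 CPM per kilobase with DMSO (SD, n = 3), 30.1 ± 3.16 with Crizotinib, 17.3 ± 0.641 with PD173074 and 6.98 ± 1.83 with Combo. The Spred sum was 50.9 ± 5.21, 56.8 ± 6.16, 35.4 ± 7.74 and 11.2 ± 7.67 in the same order. In Combo the Sprouty sum was 8.68, 5.04 and 7.22 and the Spred sum 20.0, 7.96 and 5.73 CPM per kilobase in A1005, A1129 and A1471, so that A1471 was the only line with more Sprouty than Spred transcript. The share of Spry1 in the sum of all 6 genes was 2.94%, 2.97% and 5.98% with DMSO in A1005, A1129 and A1471. It was 5.3%, 4.3% and 9.2% with PD173074, and 6.87%, 15.1% and 35.3% with Combo. In A1471 Spry1 was then the member with the largest share, ahead of Spred1 at 25.4%, Spry2 at 20.4% and Spred2 at 14.9%.

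**Figure D4:**
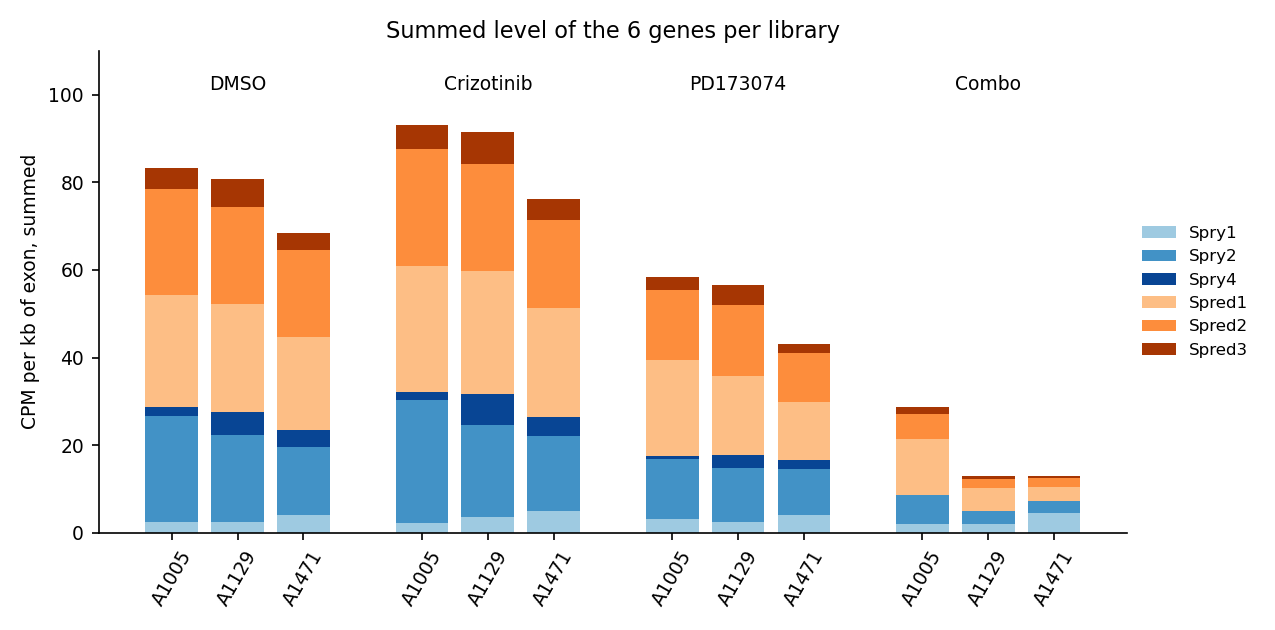
Stacked level of the 6 genes in each library, in CPM per kilobase of exon, by treatment and cell line. The Spry1 segment stays near its height with DMSO, while the other segments shrink in Combo, where the Spred sum is 20.0 CPM per kilobase in A1005 and 7.96 and 5.73 in the other lines.

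The likeness between members was measured as the root mean square difference of their log2 changes, each line against its own DMSO library, over the 9 treated libraries. Spry2 and Spred3 were nearest to each other among the members, at 0.24, followed by Spred2 and Spred3 at 0.32 and by Spred1 and Spred3 at 0.38. Spry4 lay 1.62 from Spred2, its nearest member, and Spry1 at least 1.22 from any other. Among the 11565 genes whose mean log2 CPM reached 1, the genes nearest to Spry4 were Etv5, an ETS factor, at 0.49, Dusp6, an ERK phosphatase, at 0.59, and Ccnd1, the cyclin D1 gene, at 0.70, against a median distance of 3.34. Nearest to Spry2 were Ptges at 0.22, Spred3 and Cd44 at 0.27, and nearest to Spred3 were Cd44 at 0.18, Ptges at 0.20 and Spry2. Spred2 was nearest to Dusp5, a nuclear ERK phosphatase, at 0.27, then to Ptges at 0.29 and Tubb6 at 0.31. Genes near to Spred1 included Gm6634 at 0.26 and Unc5b at 0.26. Spry1 was nearest to Ccdc167 at 0.18, Gpr180 at 0.20 and Gm10138 at 0.20, none of which passed the test in Combo (edgeR adjusted p = 0.784, 0.579 and 0.873). The 3 DMSO libraries enter all of these distances.

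The remaining genes of the pathway were followed as lists. Upstream of the feedback inhibitors, none of the 9 tested genes of 13 receptors, ligands and receptor substrates passed the unpaired edgeR test in Combo. Of these 9 genes, 2 had an unadjusted p under 0.05, and DESeq2 and limma-voom called 0. Their log2 fold changes ranged from -1.43 to 5.37, neither of which passed. With the block 4 of them were higher, where 28.6% of all genes were called higher. Met was at 4227 ± 1399 CPM with DMSO and 5189 ± 2235 with Combo, a log2 fold change of 0.30 (SE 0.44, edgeR adjusted p = 0.722). Fgfr1 had a log2 fold change of -0.11 (SE 0.15, edgeR adjusted p = 0.711). Of 19 tested genes of the cascade from adaptors to ERK, only Gab1, a docking protein for Met, passed, and it rose from 11.4 ± 3.36 to 40.2 ± 18.9 CPM (log2 fold change 1.82, SE 0.39, edgeR adjusted p = 0.0149), where 6.1% of all genes were called higher. With the block, 5 cascade genes were lower and 3 higher, where 26.2% of all genes were called lower and 28.6% higher. The median log2 fold change over the 19 genes was 0.01. In the unpaired fit, 0 cascade genes passed without A1129, without A1471 or with only the groups compared, and 4 passed without A1005. Of all genes, 324 of 13791, 120 of 14021, 594 of 12868 and 2021 of 13568 were called in these fits. Among 13 tested partners that bind Sprouty or Spred proteins, Siah2, a ubiquitin ligase for Sprouty proteins, fell (log2 fold change -0.98, SE 0.26, edgeR adjusted p = 0.0326) and the other 12 did not pass. This is 7.69% of the list, where 8.28% of all genes were called lower. No partner passed without A1129, without A1471, without a filter on low counts or with only the groups compared. With the block 3 partners were lower and 7 higher, against 26.2% and 28.6% of all genes. Nf1, the neurofibromin gene, had a log2 fold change of -0.17 (SE 0.16, edgeR adjusted p = 0.555). Kit had 0 counts in every library.

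Other negative regulators of the pathway fell in part. Of 16 tested genes, 4 fell and 1 rose in Combo (edgeR, unpaired), where 8.28% of all genes were called lower and 6.1% higher. With the block 10 were lower and 2 higher, against 26.2% and 28.6% of all genes. Dusp6 fell from 182.5 ± 56.8 to 5.56 ± 3.44 CPM (log2 fold change -5.03, SE 0.54, edgeR adjusted p = 0.000486). Dusp5 and Dusp4, phosphatases of the same family, had log2 fold changes of -2.88 and -2.59 (edgeR adjusted p = 0.00608 and 0.0222), and Dok1, an adaptor that recruits RasGAP, one of -1.47 (edgeR adjusted p = 0.0184). Among 12 ERK target genes, 9 were called lower and 0 higher in the unpaired fit, against the same 8.28% and 6.1%. The median log2 fold change was -3.13, and the highest was 3.99, which did not pass. With the block 10 ERK targets were lower and 1 higher, against 26.2% and 28.6% of all genes. The log2 fold changes were -5.29 for Ccnd1 (edgeR adjusted p = 4.59e-05), -4.99 for Etv5 (edgeR adjusted p = 4.3e-05) and -4.74 for Etv4 (edgeR adjusted p = 0.000384). Dusp4 and Dusp6 stand in both lists, and the lists were chosen with earlier results of these data known, so these counts are not independent evidence of a direction. Without A1471, 3 ERK targets and 1 of the other inhibitors were called in the unpaired fit, and without A1129 7 and 1. Of all genes, 120 of 14021 and 324 of 13791 were called in these fits. The change of Spry4 was as large as those of the ERK targets that fell most, while the log2 fold changes of Spry2 and the 3 Spred genes, from -1.74 to -2.82, lay between those of Dok1 and Dusp5. With PD173074 alone, 0 genes of these 5 lists passed the unpaired edgeR test. In that fit 5 ERK targets and 2 of the other inhibitors had an unadjusted p under 0.05, with Dusp6 in both. DESeq2 called 1 ERK target lower, where 4 of 13836 genes were called lower. With the block 4 ERK targets were lower in edgeR, where 0.52% of all genes were.

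**Figure D5:**
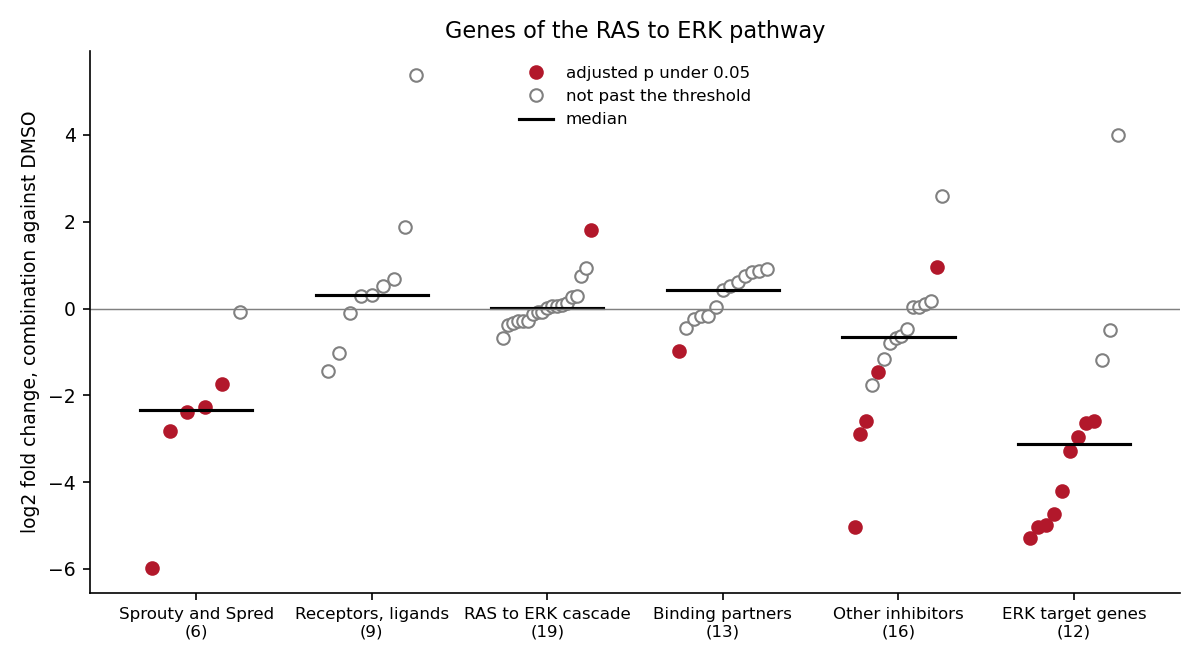
Log2 fold change in the combination against DMSO for the 6 members and the tested genes of 5 lists of the pathway (number of genes in brackets); filled red points are genes past the threshold of the unpaired edgeR fit (adjusted p under 0.05), open points are not, and black bars are medians. The median is -2.33 for the members, -3.13 for the ERK targets, -0.65 for the other inhibitors and within 0.42 of 0 for the remaining lists.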

How the data were processed

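Tumourspheres of 3 cell lines under 4 treatments gave 12 libraries, grouped by the treatment label. The authors sequenced them on a NextSeq500, aligned reads with STAR to mm10 and deposited raw counts per Ensembl gene (HTSeq is named in the submitters' processing notes). The strand setting and annotation release are not given in the sources used here. Inhibitor doses are not stated in the labels. None of the 66 library pairs held identical counts (lowest chi-square per degree of freedom 4.54).

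The filter filterByExpr (at least 10 counts, total of at least 15) kept 13836 genes holding at least 99.8% of each library's counts. Counts were normalised by TMM (factors 0.973 to 1.043) and tested in 1 unpaired fit with edgeR 4.0.16 in R 4.3.3, as the study's methods state an unpaired analysis. P-values were adjusted by the Benjamini-Hochberg method over all tested genes, with a threshold of 0.05. In the unpaired fit the tests set a change against the spread between cell lines. With the block they set it against the spread left after differences between lines common to all treatments are taken out. Standard errors were taken as the absolute log2 fold change divided by the square root of the quasi-likelihood F statistic. Intervals of the edgeR log2 fold changes were built on them. Log2 changes by line used CPM with a prior count of 2. Exon lengths came from GENCODE M21. Pairing by cell line comes from the labels, and libraries of the same line deviated together from their treatment means (correlation across genes 0.766 to 0.962 over 18 pairs). Alternatives used the block, DESeq2 1.42.0, limma-voom (limma 3.58.1), other scalings, filters and sample sets. The test script was checked on simulated counts. Plots were drawn in Python 3.11.15 with matplotlib 3.10.9.

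Named genes were the 6 members, genes overlapping them, Spry3, up to 4 called genes per list with the largest change in Combo, Met, Fgfr1 and the 3 genes nearest to each member. Some genes that this rule selects are not reported here. Nf1, Kit and the marker genes were named after their values were seen. The members and all lists were chosen with earlier results of these data known.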

Additional observations from a re-analysis of the deposited data

Results flagged for a closer look

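With the block, the effect of PD173074 on 5 members differed with and without Crizotinib, where 10.7% of all genes were called lower (edgeR). The test set the change in Combo against the summed changes with either inhibitor alone. Fewer of the 5 passed when A1129 or A1471 was left out. The departure on the log2 scale was -5.10 for Spry4, -2.39 for Spred2, -1.89 for Spred3, -1.79 for Spry2 and -1.62 for Spred1. Each was below 0 in 3 of 3 lines, as were 28.5% of all tested genes. In the unpaired edgeR fit 0 of these 5 passed an adjusted p of 0.05, where 0.911% of all genes were called lower. The departures there ranged from -5.24 for Spry4 to -1.51 for Spred1. With Spry4 at 1 to 10 counts per Combo library, the size of its departure is limited by depth.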

How the results depend on the processing

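For Spry2, Spry4 and the 3 Spred genes, the direction in the 3 comparisons of Combo and in the departure from additivity was the same under every alternative that tested them. The count of members called with Crizotinib was 0 throughout. Leaving out 1 line turned the sign of Spry1, which was not called in any of these fits. Its log2 fold change ranged from -0.02 to 0.21 with PD173074 (-0.01 with the block and without A1005), from -0.29 to 0.03 in Combo (0.02 without A1129) and from -0.49 to 0.04 for Combo against PD173074.

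The pairing of libraries by cell line moved counts most. With the replicate block, the members called were 1 with PD173074, 5 in Combo against PD173074 and 5 in the departure. The lists then gave 8 cascade genes in Combo and 4 ERK targets with PD173074. With PD173074 and Combo in turn they gave 1 and 10 partners, 1 and 12 other inhibitors, and 1 and 4 receptors and ligands. Of all 13836 genes, 296 were called with PD173074 and 7578 in Combo. For Combo against PD173074 the number was 5506, and for the departure 2241. DESeq2 with the block gave the same counts of members and list genes, except for 2 members (Spry2 and Spry4), 1 cascade gene and 7 ERK targets with PD173074. Of all genes it called 635 with PD173074, 7357 in Combo, 5467 in Combo against PD173074 and 2792 in the departure. DESeq2 without the block called 5 members in Combo against PD173074 and 3 in the departure. It called 2 cascade genes and 4 partners in Combo, and 1 ERK target with PD173074. Of all genes it called 1556 in Combo against PD173074, 459 in the departure, 3032 in Combo and 17 with PD173074. Limma-voom called 1 member in the departure, and 135 of all 13836 genes. Limma-voom (Spry4 lost) and no filter (Spry2 lost) each called 2 members against PD173074. Of all genes, they called 656 of 13836 and 401 of 28504. Total counts as the scale gave 2 partners in Combo, and no filter gave 0 partners. Of all genes, 1897 of 13836 and 1160 of 28504 were called there. With only the groups compared, 0 members passed against PD173074, and 4 (without Spred1) passed against DMSO and against Crizotinib. In Combo, 0 cascade genes, 0 partners and 1 other inhibitor passed. Of all genes, 117 of 12821 were called against PD173074, 594 of 12868 against DMSO and 616 of 12869 against Crizotinib. A log2 fold change of at least 1.5 left 0 partners and 3 other inhibitors in Combo, and 794 of all 13836 genes.

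With each line left out of the unpaired fit, the members called ranged from 0 to 5 in Combo, 0 to 5 against Crizotinib and 0 to 4 against PD173074, with 0 to 4 cascade genes, 0 to 3 partners, 1 to 8 other inhibitors, 3 to 9 ERK targets and 0 to 1 receptors in Combo. Over all genes, the calls in Combo ranged from 120 to 2021 in these fits. Against Crizotinib the calls over all genes ranged from 109 to 1835, and against PD173074 from 60 to 627. With the block and a line left out, 4 to 5 members passed against PD173074, 1 to 5 in the departure and 0 with PD173074. In Combo 3 to 6 cascade genes, 6 to 9 partners, 11 to 13 other inhibitors and 2 to 4 receptors passed. With PD173074, 0 to 1 partners, 0 to 2 other inhibitors and 0 to 3 ERK targets passed. Over all genes, these fits called 5153 to 6823 in Combo and 4 to 131 with PD173074. They called 2352 to 4734 in Combo against PD173074 and 423 to 1679 in the departure. The cause of these differences was not tested. A minimum of 10 counts in every library removed Spry4 from the test. At 1 to 10 counts, depth limits the size of its fall in Combo.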
